A study of Mus musculus with 17 samples.

Results

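Mammary tumors with high and with medium expression of the Wnt genes were compared gene by gene. Of the 17 tumors profiled, 10 entered the comparison. The 5 high-Wnt tumors are p75-47, p75-80 and p75-94, which are adenosquamous carcinomas, p110-225, a solid carcinoma, and p110-374, an adenomyoepithelioma. The 5 medium-Wnt tumors are p75-90, an adenomyoepithelioma, p75-129, a solid carcinoma, p75-216, an adenocarcinoma, p110-98, an adenoma, and p110-121, a solid carcinoma. The other 7 tumors form the low-Wnt cluster, which entered the fit only to share the estimate of the spread. Clusters were taken as the study drew them. It drew them from 19 Wnt genes on these same arrays, so the Wnt genes are described here with no test between the clusters.

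Every mouse was of the FVB strain and carried CUX1, a homeodomain transcription factor of the Cut family, as a p75 or a p110 isoform under the mammary tumor virus (MMTV) promoter. The transgene is thus shared by both clusters, each of which holds 3 p75 and 2 p110 tumors, and no tumor without a transgene was profiled here. Epithelial cells were laser-captured from 1 tumor per mouse, and their RNA was amplified in 2 rounds and hybridized on 2-color Agilent arrays, with the dyes swapped, against an amplified universal mouse reference RNA. Values are log2 ratios of tumor over reference, 1 per tumor and gene, and a difference is the mean of the high-Wnt tumors minus that of the medium-Wnt tumors. A gene counts as measured in a tumor if each of its arrays showed a tumor signal well above background. The p75 and the p110 arrays were scanned in different years, so transgene and scan year cannot be told apart. The 3 adenosquamous carcinomas are all high-Wnt and all p75, so within the p75 tumors the cluster and the histological type cannot be told apart either.

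Wnt proteins are secreted ligands that are lipid-modified by Porcn before release. They bind Frizzled receptors with the co-receptors Lrp5 and Lrp6, which stabilizes β-catenin and turns on genes through the factors Tcf7, Lef1 and their relatives. In the mammary gland and in skin the pathway is known for its part in stem cell maintenance and in the formation of hair follicles.

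The signal of the tumors was uneven. Probes well above background in the tumor color made up 20.9% to 54.5% of all probes in high-Wnt tumors and 23.1% to 65.0% in medium-Wnt tumors. The mean was 35.0% ± 13.4 (SD, n = 5) in the first and 38.3% ± 16.2 (SD, n = 5) in the second. This difference lay within the spread of the tumors (exact permutation test, two-sided, p = 0.762, where 0.00794 is the lowest that 5 against 5 can reach). Signal was weak in p110-225, p110-374 and p110-98, whose reference outshone the tumor by factors of 9.05, 12.1 and 13.3 at the 95th percentile, against 4.14 or less elsewhere in the comparison. In 9 of the 10 tumors the keratins Krt5 (4.85 to 9.11), Krt8 (0.18 to 2.91) and Krt14 (1.99 to 7.79) lay above the reference. The exception was p110-121, with -0.11 for Krt5, -4.24 for Krt8, -4.82 for Krt18, -3.31 for Krt19 and -0.17 for Krt14, and with the highest mean of the immune cell list, 2.41 against -0.19 to 1.39 in the others. Krt19 was also below the reference in p75-94 (-0.67). The epithelial label of p110-121 is therefore not borne out by its defining markers.

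After adjustment over all genes, no gene passed the threshold between the clusters. Of 28786 genes, 0 (0%) had a Benjamini-Hochberg adjusted p under 0.05 in limma, and the smallest adjusted p was 0.656. Unadjusted p-values under 0.05 were found for 638 genes higher in high-Wnt tumors (2.22%) and for 520 genes lower (1.81%). With median centering of the arrays in place of loess the split was 175 higher and 219 lower. Values of the 5 high-Wnt tumors lay wholly above those of the 5 medium-Wnt tumors for 93 genes (0.325% of the 28586 genes with a value in all 10) and wholly below for 90 genes (0.315%). Arbitrary splits of 10 tumors into 5 and 5 would separate a gene, in either direction, in a share of 0.00794. Over all genes, the shares above and below together do not exceed that. Among the 11375 genes measured in at least 3 of 5 tumors of a cluster, 65 lay wholly above and 45 wholly below. The values below therefore describe differences in these tumors, and with all tumors every gene had an adjusted p of 0.656 or more. Where a gene or a list member is said to have a p under 0.05, this is the unadjusted p, to be read against the 2.22% and 1.81% of all genes. With each tumor left out in turn, these shares ranged from 1.7% to 2.65% and from 1.47% to 2.36%. Among the 11375 genes measured in at least 3 of 5 tumors of a cluster, 473 were higher and 340 lower with such a p. Their shares are thus larger than those of all genes. Of 61 genes described below with such a p, Wnt ligands aside, 25 lost it when 1 or another of the 10 tumors was left out, 16 of them without p75-94, 15 without p75-80 and 12 without p110-121. The 12 were Wif1, Sp5, Irs1, Shh, Padi3, Itgb4, Csn1s1, Tgfbr2, Epgn, Mt1, Mt2 and Hsph1. Without p110-121, 2 genes passed the adjusted threshold, Cadm1 (higher by 1.91, adjusted p = 0.00885 in limma) and Lonp2 (-1.59, adjusted p = 0.0393), both chosen after their values were seen.

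Among the 19 Wnt ligands, Wnt10a, Wnt2 and Wnt6 showed the largest differences between the clusters. The promoter of Wnt6 is shown because Wnt6 was the ligand measured in all 10 tumors, and that of Sp5, a zinc finger factor and a known direct target of β-catenin, because it holds a match to the Tcf/Lef motif, alone among the targets described below that have an entry in the promoter table. Each sequence is the 250 bases before the transcription start in RefSeq (GRCm38.p6, plus strand), at chr1:74771642-74771891 for Wnt6 and at chr2:70474673-70474922 for Sp5. Capitals mark CTTTGAT, a form of the Tcf/Lef motif.
Wnt6: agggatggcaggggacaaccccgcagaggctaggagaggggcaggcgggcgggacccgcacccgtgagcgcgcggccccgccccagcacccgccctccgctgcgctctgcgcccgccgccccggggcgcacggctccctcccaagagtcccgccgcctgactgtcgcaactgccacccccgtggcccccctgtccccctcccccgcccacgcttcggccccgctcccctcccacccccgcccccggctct
Sp5: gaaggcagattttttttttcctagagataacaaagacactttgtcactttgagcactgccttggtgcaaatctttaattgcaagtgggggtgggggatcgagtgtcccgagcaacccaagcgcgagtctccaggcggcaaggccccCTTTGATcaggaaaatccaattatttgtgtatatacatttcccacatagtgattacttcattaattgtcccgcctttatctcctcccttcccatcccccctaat

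The match in the Sp5 promoter lies 97 bases before the start. G and C make up 79.6% of the Wnt6 stretch, which holds no match on either strand to CTTTGAT or CTTTGAA, and 46.0% of the Sp5 stretch. On either strand, CTTTGAT is found in 3.72% of 27025 genes of the promoter table, in 3 of the 20 β-catenin targets with an entry (Sp5, Edar and Tnfrsf19), and in 2 of 15 Wnt ligands (Wnt5b and Wnt11). CTTTGAA is found in 5.19% of all genes, in 0 of these targets and in 0 of these ligands. A match is a description of these letters and not evidence of binding.

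Wnt10a, a ligand of hair follicle and mammary development, was at 0.35 in p75-47, 2.11 in p75-80, 2.00 in p75-94, -0.93 in p110-225 and -0.36 in p110-374. In the medium-Wnt tumors it was at -1.40 in p75-90, -2.06 in p75-129, -1.69 in p75-216, -2.61 in p110-98 and -3.23 in p110-121. All 5 high-Wnt values lay above all 5 medium-Wnt values, with a difference of 2.83. It was 3.21 within the p75 and 2.27 within the p110 tumors, and the gene was measured in 5 high-Wnt and 3 medium-Wnt tumors.

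Wnt6, the neighbor of Wnt10a on chromosome 1, was at 1.25, 2.07 and 2.15 in the p75 and at 0.39 and 1.2 in the p110 high-Wnt tumors. The medium-Wnt tumors lay at 0.40, 0.11, 0.11, 0.66 and 0.28. Only p110-225 lay within their range. The mean difference was 1.10, with 1.62 within p75 and 0.33 within p110.

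Wnt2 did not overlap between the clusters but was dominated by 1 tumor. It was at 6.31 in p110-225, 2.28 in p75-94 and 0.67 to 0.97 in the other high-Wnt tumors, against 0.05 to 0.42 in the medium-Wnt tumors. Its difference of 2.09 fell to 1.07 without p110-225, the tumor with the highest mean of the adipocyte list in these clusters (4.41, against -0.74 to 1.40 in the other 9). The part of these adipocyte transcripts in the Wnt2 value was not tested. Wnt2 was measured in 4 high-Wnt and 1 medium-Wnt tumors.

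Wnt3a, a canonical ligand of stem cell niches, averaged 0.53 and 0.01. It was at 0.47, 0.54 and 1.5 in the 3 adenosquamous tumors and between -0.05 and 0.09 in the other 7. The other 15 ligands overlapped between the clusters, with differences from -0.16 (Wnt16) to 0.74 (Wnt8a). Wnt8a rested on 1 tumor, p75-94, at 3.65, and Wnt3 was high in p75-94 (2.97) and p75-80 (1.57) but also in the medium-Wnt tumor p110-121 (2.07). By sign, 14 of the 19 ligands lay higher in the high-Wnt cluster and 5 lay lower, with a median difference of 0.14, which was 0.06 without p75-94. No tumor of either cluster had a measured Wnt2b or Wnt5a, while Wnt7a and Wnt8b were not well above background in any high-Wnt tumor.

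Porcn, the acyltransferase that lipidates Wnt proteins, was higher by 0.90 (SE 0.33), with 1.52 within p75 and -0.03 within p110, and it was the member with the smallest p of 9 secretion genes and R-spondins. Rspo1, a secreted enhancer of Wnt signaling, ranged from -0.06 to 8.33 in high-Wnt and from -0.01 to 3.14 in medium-Wnt tumors, a difference of 2.79 (SE 1.69). Of 24 receptors and transducers, 1 had a p under 0.05. This was Ryk, an atypical Wnt receptor, at -0.25 to 0.15 in high-Wnt and -1.18 to -0.24 in medium-Wnt tumors, which overlap only by p75-216 and p110-374. Its difference of 0.71 (SE 0.18) was similar within p75 (0.57) and p110 (0.92). The median of the receptor list was 0.00, close to the -0.01 of all genes.

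As a list, secreted antagonists of the pathway did not lie lower in high-Wnt tumors, with a median difference of 0.16. Of 16, 11 were higher and 5 lower. A p under 0.05 was found for 2, Wif1 (1.85, SE 0.77), which binds Wnt proteins, and Dkk2 (1.56, SE 0.62), a ligand of Lrp co-receptors. Neither had such a p without p75-80 or without p75-94, and the Wif1 difference without p75-94 was 1.19. Wif1 was at 1.42, 3.96 and 4.98 in the 3 adenosquamous tumors and at 0.35 and 0.99 in the p110 high-Wnt tumors. The medium-Wnt tumors had -0.03 to 1.73. Wif1 was measured in 3 high-Wnt and 1 medium-Wnt tumors. Sostdc1, another antagonist, differed by -1.24 (SE 1.15), with -1.13 within p75 and -1.42 within p110. Ctnnb1, which encodes β-catenin, was measured in all 10 tumors and differed by 0.06 (SE 0.59), with 0.83 within p75 and -1.10 within p110.

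Known targets of β-catenin had a median difference above that of all genes. Of 31 targets, 6 had a p under 0.05 in the higher direction (Tcf7, Apcdd1, Lef1, Notum, Sp5 and Irs1) and 0 in the lower, with a median difference of 0.67 against -0.01 over all genes. The median was 0.95 within p75 and 0.08 within p110. Here and for the lists below, whether such medians differ between the transgenes was not tested. With a term for adenosquamous type, the median was 0.15 and 2 of the 31 were higher with a p under 0.05, against 2.99% of all genes in that fit. Without p110-225, p110-374 and p110-98, the 3 tumors with a weak signal, it was 1.26, and 11 were higher and 1 lower with such a p, against 3.71% and 3.3% of all genes. The high-Wnt tumors left in that fit are the 3 adenosquamous p75 carcinomas, so cluster and histological type cannot be told apart in it. Without p75-80 the median was 0.42.

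Apcdd1, an inhibitor of the pathway that is itself induced by it, was at 2.24, 3.97 and 5.28 in p75-47, p75-80 and p75-94. It was at -1.12 in p110-225 and -0.92 in p110-374, and at -2.18 to -1.2 in the medium-Wnt tumors. The clusters did not overlap, although both p110 high-Wnt values lay close to the highest medium-Wnt value. The difference of 3.65 (SE 1.34) was made up of 5.76 within p75 and 0.48 within p110.

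Tcf7, the nuclear partner of β-catenin, was at -0.07, 0.54 and 0.71 in the p75 and at -0.40 and -0.43 in the p110 high-Wnt tumors, above the medium-Wnt tumors (-1.99 to -0.60). The difference was 1.39 (SE 0.35), with 2.04 within p75 and 0.42 within p110. Sp5 was at 4.12 in p75-80 and 6.11 in p75-94 but at -0.02 in p75-47, the third adenosquamous tumor. The p110 high-Wnt tumors had 1.03 and 0.17, and the medium-Wnt tumors 0.00 to 0.76. The Sp5 difference was 2.08 (SE 0.90) and, without p75-94, 1.12, where its unadjusted p was no longer under 0.05. Tcf7 and Sp5 were each measured in 3 high-Wnt and 1 medium-Wnt tumors, so their other ratios rest on a tumor signal not well above background on every array.

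Notum, a secreted enzyme that removes the lipid from Wnt proteins, was measured in the 3 adenosquamous tumors and not well above background in any medium-Wnt tumor. Its mean signal was at least 2.11-fold higher in the high-Wnt cluster (adjusted p = 1 in limma), although p110-225 (-0.325) lay below every medium-Wnt tumor. Its log2 difference of 1.23 ranged down to 0.70 with a tumor left out, and its unadjusted p was over 0.05 without p75-80, p75-94 or p75-129. Here and below, such a bound sets the mean signal of the brighter cluster against the higher of the dimmer cluster's own signal and the lowest signal that was well above background. Axin2, a widely used target, was measured in none of the 10 tumors. Ccnd1, a cyclin often listed as a target, differed by -0.41 (SE 0.70) and Myc by 0.71 (SE 0.37). Glis1, the zinc finger factor that the study followed up, ranged from -1.91 to -0.25 in high-Wnt and from -2.55 to -0.96 in medium-Wnt tumors. Its difference of 0.60 (SE 0.31) rests on 2 high-Wnt and 1 medium-Wnt tumors in which it was measured. Its unadjusted p was over 0.05, and the difference ranged from 0.35 to 0.82 when each tumor was left out in turn. The difference was largest without p75-80 (0.82). Its unadjusted p was under 0.05 in some fits with a tumor left out, p110-121 among them (0.75), and with a term for adenosquamous type (0.82).

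Cux1 itself was among the genes with a p under 0.05. It was at -0.48, -1.28 and -0.32 in the p75 and at -0.83 and -0.73 in the p110 high-Wnt tumors, against -1.58, -1.05, -2.12, -1.31 and -1.28 in the medium-Wnt tumors. Of the high-Wnt tumors, p75-80 alone lay within the medium-Wnt range. The difference was 0.74 (SE 0.27), or 0.89 within p75 and 0.51 within p110, and from 0.58 to 0.88 when each tumor was left out in turn. Without p75-216, where it was 0.58, its unadjusted p was over 0.05. The gene was measured in all 10 tumors. Whether its probe also reads RNA of the transgene was not tested.

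Of 14 Hedgehog pathway, Gli and Glis genes, 3 had a p under 0.05, all higher, and 1 had one without p75-94 or without p75-216. Dhh, a Hedgehog ligand, was at 1.35, 2.06 and 2.90 in the adenosquamous tumors, -0.34 in p110-225 and 0.45 in p110-374, and between -1.21 and -0.33 in medium-Wnt tumors, where it was not well above background. Its mean signal was at least 4.22-fold higher in the high-Wnt cluster (adjusted p = 0.656 in limma), at log2 9.08 against a bound of 7.0 in the medium-Wnt tumors. Dhh was measured in 3 high-Wnt tumors, and p110-225 lay within the medium-Wnt range. Gli3, a transcription factor of the pathway, was higher by 1.27 (SE 0.52) and Shh, another ligand, by 0.33 (SE 0.15) with 1 tumor measured. Ptch1 and Gli1, which are induced by Hedgehog signaling, differed by -0.21 (SE 0.27) and -0.04 (SE 0.09), and neither was measured in a high-Wnt tumor.

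Genes of the squamous and cornified envelope, which are made as keratinocytes mature, form the longest of the 30 lists and held the most members with a p under 0.05. Of 54 members tested, 17 had a p under 0.05 in the higher direction and 0 in the lower, and 46 were higher by sign. The median difference was 0.40, with 0.67 within p75 and 0.05 within p110. Without p75-80, 8 members had a p under 0.05 in the higher direction, without p75-94 9 and without p75-129 11. Krt16, a keratin of activated epidermis, was at 5.78, 7.67 and 5.46 in the adenosquamous tumors and at 2.89 and 1.71 in the p110 high-Wnt tumors. It was at -0.03 to 2.54 in the medium-Wnt tumors, and was measured in all 10.

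The Krt16 difference of 3.77 (SE 0.86) was 5.42 within p75 and 1.29 within p110. Cnfn, a cornified envelope protein, was at 2.14, 4.52 and 3.74 in the adenosquamous tumors and at most 0.63 in the other 7 tumors of the comparison. Its clusters did not overlap (2.17, SE 0.61). Tgm1, the transglutaminase that cross-links the envelope, was higher in both transgenes, by 2.23 within p75 and 1.27 within p110 (1.85 in all, SE 0.55). Klk6, an epidermal protease, was at 4.36, 4.52 and 6.0 in the adenosquamous tumors and between -0.02 and 0.37 in the other 7.

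Klk6 differed by 2.90 (SE 0.91), with 4.76 within p75 and 0.12 within p110, and the limma interaction of cluster and transgene (adjusted p = 0.0731) did not pass the threshold. It was measured in 3 high-Wnt and 1 medium-Wnt tumors, so its other ratios rest on a tumor signal not well above background on every array. With a term for adenosquamous type, 5 of the 54 squamous genes had a p under 0.05. In p75-101, the adenosquamous carcinoma of the low-Wnt cluster, the mean of 44 squamous genes measured in any of the 10 tumors was 0.31. It was 0.94, 2.70 and 2.12 in the 3 high-Wnt adenosquamous tumors and 0.16 to 0.77 in the medium-Wnt tumors. Krt16 was at -0.60, Klk6 at 0.14 and Apcdd1 at -0.78 in p75-101. The adenosquamous tumor of the low-Wnt cluster thus lay within the medium-Wnt range of this mean.

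Of 25 hair follicle genes tested, 4 were higher with a p under 0.05 (Krt27, Krt28, Padi4 and Padi3) and 1 was lower (Gprc5d, by 0.16). Krt27 and Krt28 are keratins of the inner root sheath, and Padi3 and Padi4 convert arginine to citrulline in proteins. Krt27 was at 2.79, 2.89 and 5.45 in the adenosquamous tumors and between -0.24 and 0.25 in the other 7, in none of which it was measured. Krt28 was measured in the same 3 tumors, with no signal well above background in medium-Wnt tumors. Its mean signal was at least 5.59-fold higher in the high-Wnt cluster (adjusted p = 1 in limma). Its difference of 2.48 became 1.33 without p75-94, in which it was at 7.17. The median of the list was 0.06, and 2 members were higher with a p under 0.05 without p75-80. With a term for adenosquamous type 0 of the 25 were. Keratins of the hair shaft did not stand out, with differences of 0.06 for Krt31, 0.00 for Krt85 and 0.01 for Krt86.

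**Figure D1:**
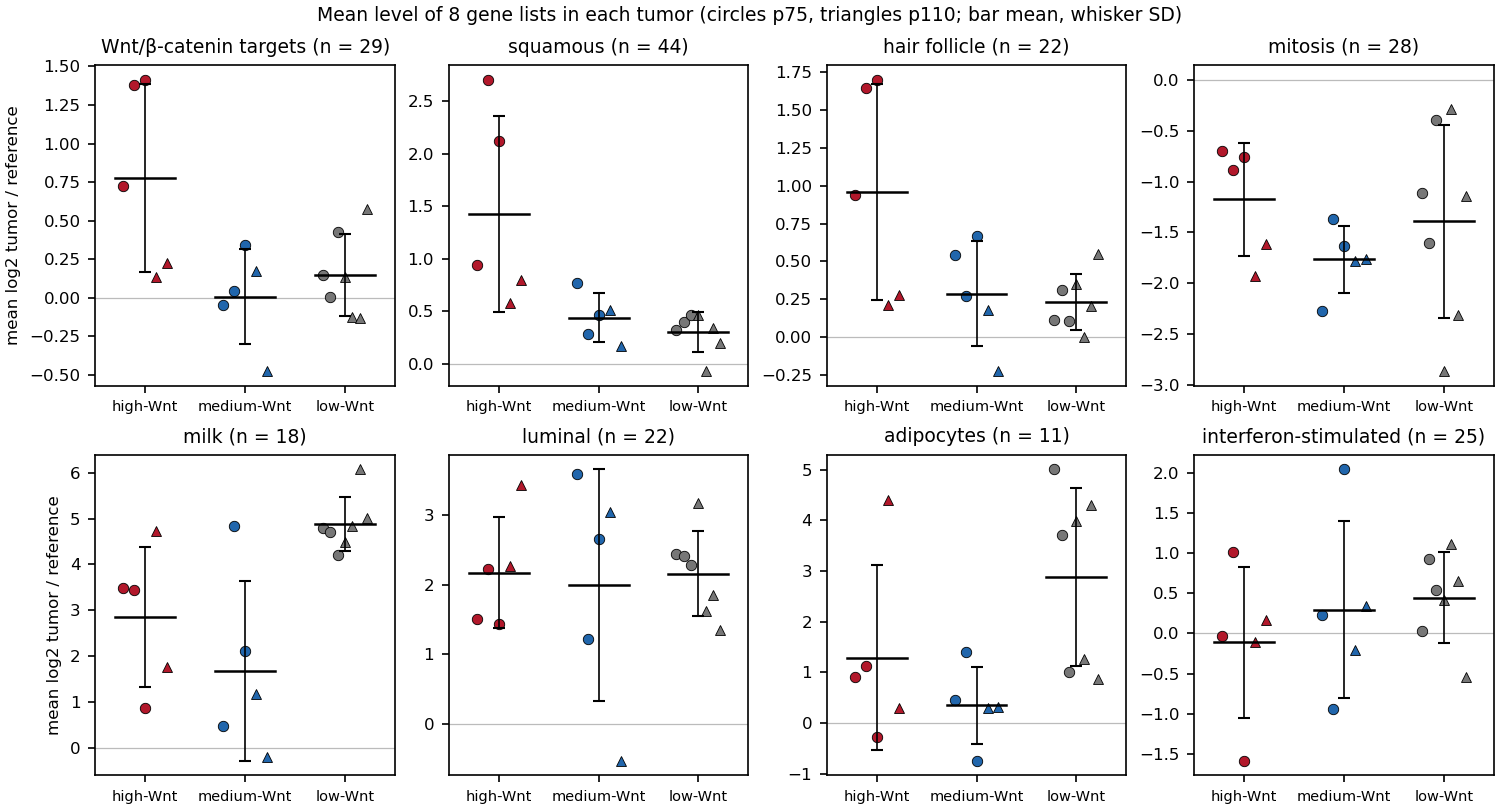
Mean log2 ratio of tumor over reference (vertical axes) over the members of 8 gene lists measured in at least 1 of the 10 tumors, by Wnt cluster, with circles for p75 and triangles for p110 tumors, bars for means and whiskers for SD. The 3 p75 high-Wnt tumors stand above all medium-Wnt tumors for β-catenin targets, squamous, hair follicle and mitosis genes, and p110-121 is the lowest point for milk and luminal genes.

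S100a8 and S100a9, which form calprotectin and are made by neutrophils and by activated keratinocytes, were the 2 of 26 immune cell genes with a p under 0.05. S100a9 was at 6.40, 9.04 and 7.83 in the adenosquamous tumors, 4.69 in p110-225 and -0.18 in p110-374. It was at -0.05 to 1.09 in the medium-Wnt tumors (5.10, SE 1.43). The median of the immune list was -0.05, and 0.46 without p110-121. C1qb, a macrophage marker, was at 0.10 to 0.56 in high-Wnt tumors and at 0.45 to 0.66 in medium-Wnt tumors other than p110-121 (2.77). Without p110-121, 6 immune genes were higher with a p under 0.05.

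Basal and luminal markers had few members under the threshold. Of 24 basal and myoepithelial genes, Krt14 (2.65, SE 0.96) and the integrin Itgb4 (1.46, SE 0.58) had a p under 0.05. Of 25 luminal genes 1 did, the prolactin receptor Prlr, which was lower by 2.63 (SE 1.08). Prlr was at -0.18 to 3.29 in high-Wnt tumors and at 2.90 to 7.27 in medium-Wnt tumors other than p110-121 (0.03), and without p110-121 the difference was -3.69. Without p75-94, p75-90 or p110-98 its unadjusted p was over 0.05, and its smallest difference with a tumor left out was -1.88.

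The median of the basal list was -0.07 within p75 and 1.0 within p110, and that of the luminal list -0.33 and 0.64. One of the 2 medium-Wnt p110 tumors is p110-121, whose means over these lists were 0.27 and -0.52, each the lowest of the 10. Without it the median of the luminal list over all tumors was -0.22 in place of 0.20. Itgb4 then differed by 0.95, with an unadjusted p over 0.05.

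Milk genes varied widely within both clusters. Of 18, 3 were higher with a p under 0.05: Glycam1, a mucin of milk (4.89, SE 1.82), and the caseins Csn1s2a (5.05, SE 1.92) and Csn1s1 (4.12, SE 1.71). Csn1s2a was at 10.31, 11.24, 3.34, 10.72 and 2.85 in the high-Wnt tumors and at -0.06, 9.40, 2.85, 1.0 and 0.02 in the medium-Wnt tumors. Low-Wnt tumors averaged 9.75. The median difference of the list was 0.68, with -0.23 within p75 and 2.40 within p110, and -0.02 without p110-121. The 3 members with a p under 0.05 became 8 without p75-129, 5 without p75-94 and 1 without p75-80 or without p110-225.

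Proliferation genes were nearly all higher by sign. Of 28 mitosis genes 26 were higher, 2 of them with a p under 0.05, and of 26 DNA replication genes 22 were higher and 0 had such a p. Cdc20, an activator of the anaphase-promoting complex, was at -0.28, -1.02 and -0.08 in the adenosquamous tumors, -1.84 in p110-225 and -0.95 in p110-374. In the medium-Wnt tumors it lay at -3.14 to -1.59. Its difference of 1.55 (SE 0.55) was 1.48 within p75 and 1.66 within p110.

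Tpx2, a spindle protein, was higher by 1.06 (SE 0.44), with 1.56 within p75 and 0.32 within p110. Its unadjusted p was over 0.05 without p75-47, p75-94, p75-90 or p75-129. Median differences were 0.55 for mitosis and 0.41 for DNA replication, or 0.29 and 0.11 with median centering of the arrays and 0.83 and 0.77 with arrays scaled to the same spread. Within p75 they were 1.15 and 0.81, with 9 of 28 and 15 of 26 members higher with a p under 0.05, against 4.15% of all genes within p75. Within p110 they were 0.02 and -0.07. With a term for adenosquamous type 0 members of either list had such a p, and 4 DNA replication genes had one without p110-374. The DNA replication median was 0.21 without p75-47.

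**Figure D2:**
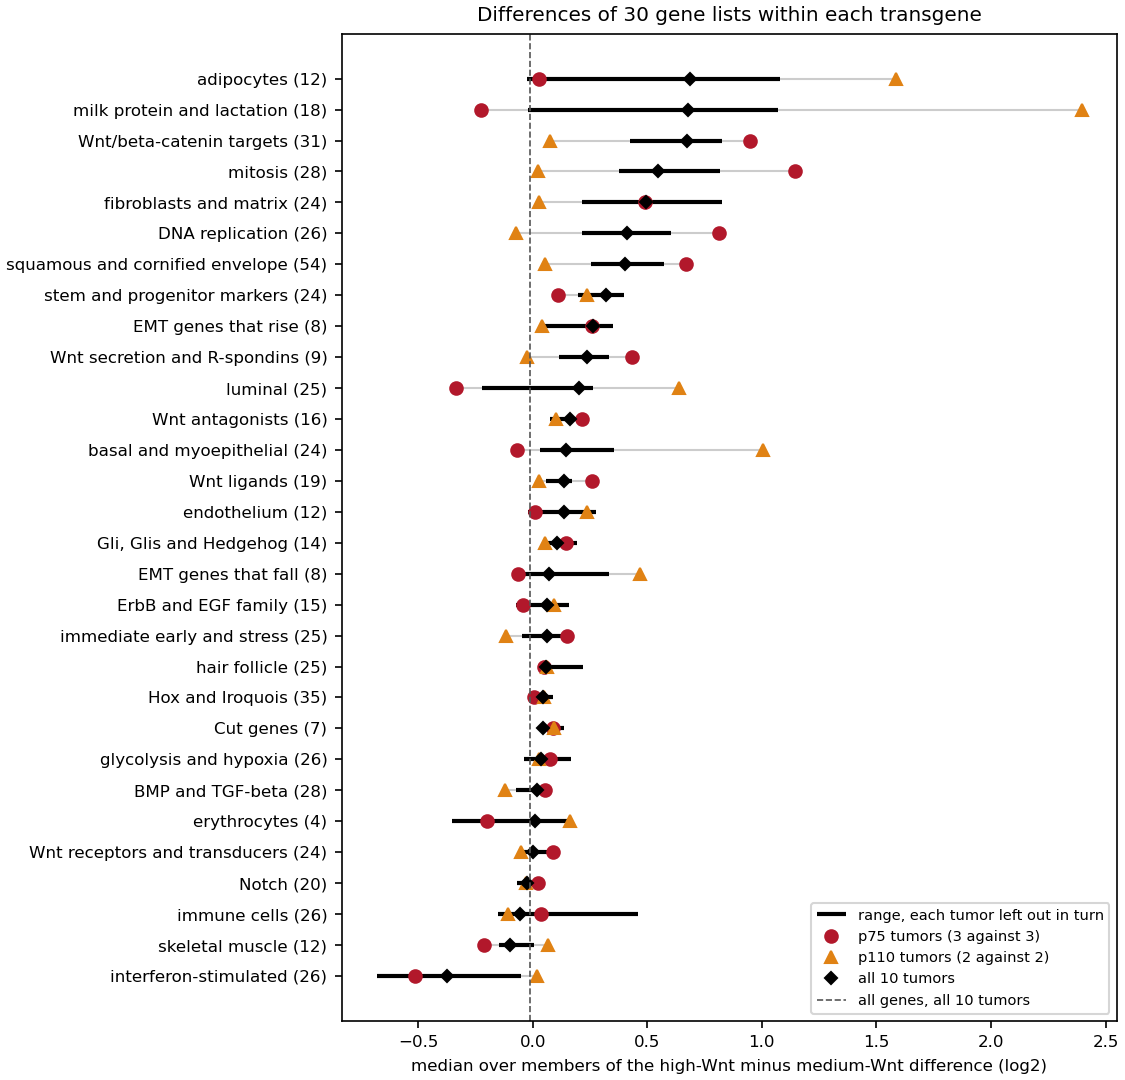
Median over the members of each of 30 gene lists of the difference between high-Wnt and medium-Wnt tumors (horizontal axis, log2), for all 10 tumors (diamonds), p75 tumors (circles) and p110 tumors (triangles), with black lines for the range when each tumor is left out in turn, the number of genes tested in parentheses and the median of all genes as a dashed line. β-catenin targets, mitosis, DNA replication and squamous genes have medians of 0.67 to 1.15 within p75 and -0.07 to 0.08 within p110, while milk, adipocyte, luminal and basal genes reach 0.64 to 2.40 within p110.

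Interferon-stimulated genes went the other way, with 24 of 26 lower by sign and a median of -0.38. The median of the list was -0.05 without p75-216, in which its mean was 2.05, and -0.07 without p75-94, in which it was -1.58.

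Genes of fibroblasts and extracellular matrix were higher by sign for 23 of 24, with a median of 0.49, and 1 had a p under 0.05. The median was 0.49 within p75 and 0.03 within p110, 0.22 without p75-129 and 0.83 without p75-47. Col1a1, a collagen chain of fibroblasts, was at -3.14, -1.53, 0.16, -1.32 and -1.21 in high-Wnt and at -4.47, -4.57, -7.20, -4.12 and -0.40 in medium-Wnt tumors (2.75, SE 1.12). Only p110-121 broke the order, and without it the difference was 3.68. Without p75-94 or without p75-216 its unadjusted p was over 0.05. The mean of the list ranged from -1.65 to 0.18 in high-Wnt and from -2.10 to -0.35 in medium-Wnt tumors. In captured epithelium, a larger share of fibroblasts and more matrix RNA per cell cannot be told apart.

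The 10 largest differences without overlap between the clusters were taken in each direction, among genes with a symbol in the RefSeq table that were measured in at least 4 of 5 tumors of the higher cluster. This leaves out Apcdd1, which is not in that table, and Krt27 and Cnfn, which were measured in 3 high-Wnt tumors. The higher ones were Sncaip, Wnt10a, Fbln1, Rhox4e, Wnt2, Ccnd2, Svep1, Maff, Anxa9 and Tonsl. Fbln1, an extracellular matrix protein, was at 0.15, 1.88, 1.89, 2.72 and 0.03 in high-Wnt tumors and at -2.14, -1.86, -2.04, -0.89 and -0.32 in medium-Wnt tumors (2.78, SE 0.70). Ccnd2, a cyclin of the G1 phase, was at -0.78, 1.16, 0.91, -0.21 and -0.72 against -1.52, -2.65, -2.94, -1.44 and -1.16 (2.01, SE 0.50). Both were higher in either transgene, Fbln1 by 3.32 within p75 and 1.98 within p110 and Ccnd2 by 2.80 and 0.84.

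Sncaip, which encodes a binding partner of α-synuclein, differed by 3.0 (SE 0.78), with 1.35 to 4.87 in high-Wnt and -0.56 to 0.64 in medium-Wnt tumors. Its low-Wnt mean of 2.22 lay closer to the high-Wnt than to the medium-Wnt mean. Maff, a small Maf transcription factor, was higher by 1.73 (SE 0.44) and Anxa9, an annexin, by 1.62 (SE 0.45), with near-equal differences for Anxa9 within p75 (1.64) and p110 (1.60). Sncaip and Anxa9 were each measured in 5 high-Wnt and 2 medium-Wnt tumors. Svep1, a matrix protein, was at 1.37 in p110-225 and at -1.78 to -1.0 in the other high-Wnt tumors, and its difference of 1.89 became 1.37 without p110-225, with an unadjusted p over 0.05.

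The 10 lower genes were Tmem37, Rab3a, Tbcel, Cpne8, Nat8f1, Pycard, Rnf130, Arl6ip5, Naxd and Syap1. Tmem37, a membrane protein related to calcium channel subunits, was at -0.48, -0.92, -0.26, 0.56 and 0.02 in high-Wnt and at 1.48, 1.45, 1.60, 0.84 and 2.27 in medium-Wnt tumors (-1.75, SE 0.36). Rab3a, a small GTPase of vesicle secretion, was at -1.75 to -0.41 in high-Wnt and at 0.33 to 0.66 in medium-Wnt tumors (-1.44, SE 0.28). Pycard, the inflammasome adaptor ASC, was lower by 1.24 (SE 0.32), with 0.80 to 1.78 against 1.85 to 3.11.

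Naxd, which repairs damaged NADH and NADPH, was at -0.99 to 0.16 against 0.31 to 1.03, and had the smallest p of these 20 genes (-1.12, SE 0.20, adjusted p = 0.656 in limma). Differences of all 10 lower genes ran from -1.75 to -1.06, smaller in size than most of the higher ones, and 9 of the 10 were measured in all 10 tumors. Tmem37 averaged -0.39 in low-Wnt tumors, near its high-Wnt mean of -0.22, while Naxd averaged 0.57 there, near its medium-Wnt mean of 0.76. The order of the clusters for these genes thus did not follow the order of their Wnt expression in every case.

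**Figure D3:**
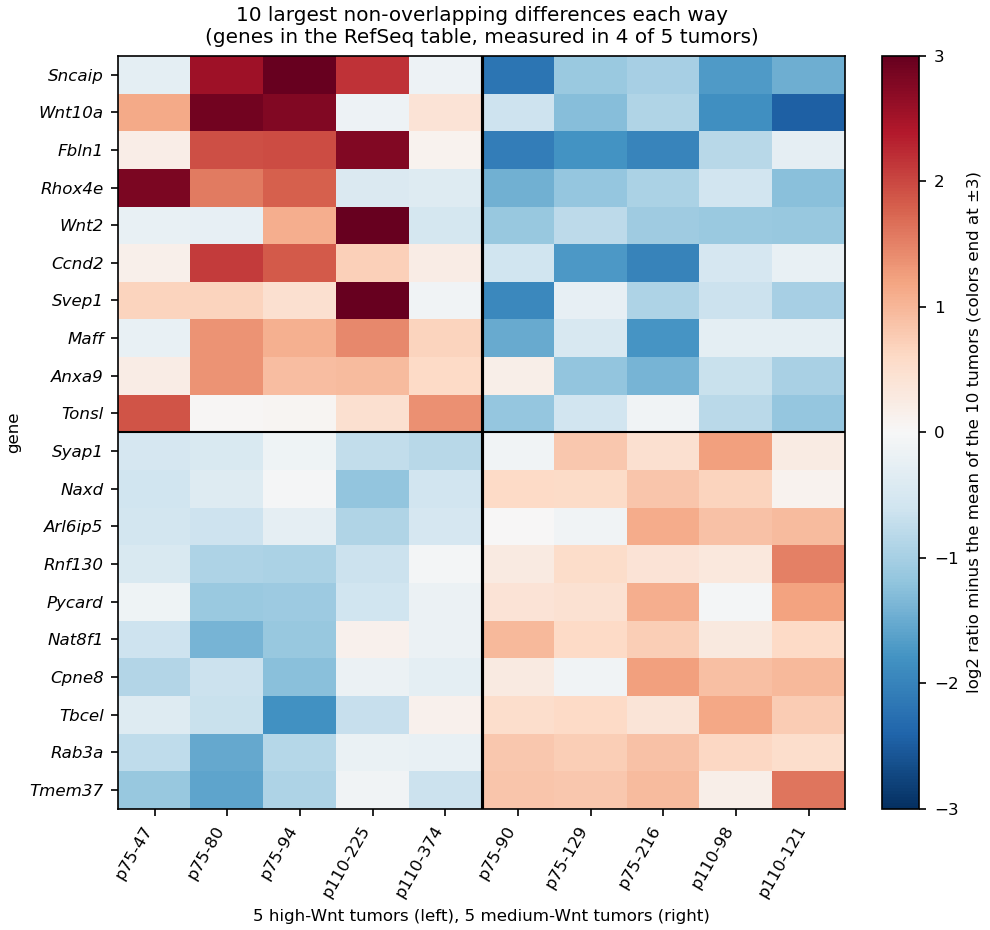
Log2 ratio of tumor over reference minus the mean of the 10 tumors (color, ending at 3 in either direction) for the 10 genes in each direction, of those in the RefSeq table and measured in at least 4 of 5 tumors of the higher cluster, with the largest differences between clusters that do not overlap, with genes in rows and tumors in columns, high-Wnt left of the line. All high-Wnt values lie above the medium-Wnt values in the upper 10 rows and below them in the lower 10 rows, by the way these genes were chosen, and p75-80 and p75-94 are among the strongest for Sncaip, Wnt10a and Ccnd2.

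The genes of epithelial-mesenchymal transition (EMT) that the study followed did not separate the clusters. Vim was measured in all 10 tumors, at -5.16 to -2.02 in high-Wnt and -5.79 to -1.74 in medium-Wnt tumors, a difference of 0.21 (SE 0.72). Snai2 differed by 0.27 (SE 0.89), Snai1 by 0.44 (SE 0.35), Twist1 by 0.29 (SE 0.29), Cdh2 by -0.03 (SE 0.14), Cdh1 by 0.00 (SE 0.74) and Ocln by 0.02 (SE 0.17). Of these, Cdh2 and Twist1 had no tumor in which they were measured, and Cdh1 and Ocln had 1 in each cluster. The 8 EMT genes that rise and the 8 that fall held 0 members with a p under 0.05. Without p110-121, which has the highest Vim, Vim differed by 0.69 and 1 rising gene had such a p, Zeb2 (0.93), a repressor of Cdh1.

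In the BMP and TGF-β list of 28 genes, 1 was higher with a p under 0.05 and 2 were lower with one, of which 0 had it without p110-98. Id1, a target of BMP signaling, was at -0.52 to 0.90 in the adenosquamous tumors and -2.58 to -1.73 in the other 7 (1.47, SE 0.53). The receptor Tgfbr2 was lower by 1.07 (SE 0.41) and Id2, a relative of Id1, by 1.67 (SE 0.67). Id2 was lower within both p75 (-1.32) and p110 (-2.20). Of 25 immediate early and stress genes, 4 were higher with a p under 0.05, namely Klf4 (2.20, SE 0.75), the metallothioneins Mt1 and Mt2 and the chaperone Hsph1. Without p75-47, p75-80, p75-94 or p110-98 1 was, and without p110-121 or p75-90 2 were. Klf4, a transcription factor of epidermal barrier formation, was at 1.57, 3.17 and 2.74 in the adenosquamous tumors. In the medium-Wnt tumor p110-121 it lay above p75-47, and without p110-121 the difference was 2.85. Within p75 the Klf4 difference was 3.49 and within p110 0.25.

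Of 15 ErbB and EGF genes, Epgn, an EGF-like ligand, was higher with a p under 0.05 (2.10, SE 0.91), which it lost when any of 6 tumors was left out. Pdk1, a kinase that limits pyruvate oxidation, was the 1 of 26 glycolysis and hypoxia genes with a p under 0.05 (-0.80, SE 0.31). The Pdk1 difference was -1.33 within p75 and -0.01 within p110, and its unadjusted p was over 0.05 without p75-216. Of 24 stem and progenitor markers, Procr (1.01, SE 0.46) and Klf4 were higher with a p under 0.05, and Procr lost it when any of 6 tumors was left out. No member of the lists for Notch (20 genes), endothelium (12), adipocytes (12), skeletal muscle (12), erythrocytes (4) or Hox and Iroquois genes (35) had a p under 0.05. Median differences of these lists were -0.03, 0.14, 0.69, -0.10, 0.01 and 0.04. Without p110-225 the adipocyte median was -0.03, the endothelial -0.02 and the erythrocyte -0.35.

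On 3 scan days the arrays held 1 tumor of each cluster, p75-80 with p75-90, p75-94 with p75-129, and p110-374 with p110-98. Of genes picked after their values were seen, the high-Wnt tumor had the higher value on all 3 days for Tcf7 (by 2.16, 2.03 and 0.17), Krt16 (by 5.13, 5.33 and 0.41), Cux1 (by 0.30, 0.73 and 0.57) and Fbln1 (by 4.02, 3.75 and 0.93). Others had the opposite sign on the p110 day, with -0.27 for S100a9, -0.15 for S100a8, -0.31 for Wif1, -0.23 for Porcn and -0.52 for Padi3, where the p75 days had positive differences.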

How the data were processed

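The scanner files deposited by the authors hold intensities and backgrounds of 45018 spots on 38 arrays, measured with Agilent Feature Extraction 9.5.3.1 and not normalized. The log2 table deposited by the authors equals normexp (offset 50), loess and averaging of dye-swapped arrays to within 4.98e-08, and the paper names limma without settings. Here these steps were repeated without control and outlier spots (R 4.3.3, limma 3.58.1), and the brightest probe stood for each of 28786 genes. Probe coordinates in the files are of mouse build mm7, and promoters are RefSeq's.

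A fit with 3 clusters and no covariate (lmFit, eBayes) gave the contrast, with p adjusted by Benjamini-Hochberg over all genes. Precision is limited by 5 tumors per cluster: the median SE was 0.373 for genes measured in 3 of 5 tumors of a cluster. On simulated data of 28577 genes for this comparison, 92.4% of genes changed by 2 on the log2 scale were recovered, 92.5% by 3 and 97.0% by 4. There, 11 unchanged genes were also called. The 200 changed genes were drawn from all genes, for which the median SE was 0.179. These shares thus do not stand for measured genes, and in the tumors no gene with such a difference passed the threshold.

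The members and the 30 gene lists were chosen with earlier results of these data known. Named genes are the Wnt, EMT and study genes, the 10 largest non-overlapping differences each way among genes in the RefSeq table and measured in at least 4 of 5 tumors of the higher cluster, and up to 4 members per list with the smallest p, measured in at least 3 of 5 tumors of a cluster. Other list members named in the text were chosen after their values were seen. Tumors are separate mice with 1 tumor each, so n counts tumors. Alternatives were other background corrections, normalizations, filters, dyes, blocks, covariates and tumors left out. Some genes are not reported here.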

Additional observations from a re-analysis of the deposited data

Results flagged for a closer look

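In each cluster of 5 tumors, a tumor was singled out when its gap to the nearest other tumor, divided by the range of the cluster, was above 0.71, Dixon's critical value. Of 162 gene and cluster pairs tested, 13 met this, where chance gives about 1 in 20. The ratios were 0.716 for Wnt2 in p110-225 and 0.792 for Wnt2 in p75-129, both high. Wnt3 in p110-121 had 0.909 and Wnt8a in p75-94 0.839, again high. Cdh1 was set apart by p110-374 in the high-Wnt cluster (0.959) and by p75-90 in the medium-Wnt cluster (0.884), at 2.03 and 2.02 in these tumors. Svep1 in p110-225 gave 0.75, Rnf130 in p110-121 0.764 and Sp5 in p75-129 0.808. Glycam1 in p75-129 had the highest ratio, 0.993, at 8.98 against 0.07 to 0.14 in the other medium-Wnt tumors. Epgn in p75-216 gave 0.863, Klf4 in p110-121 0.759 and C1qb in p110-121 0.913. Of the 13, 4 are values of p110-121, the tumor with Krt5, Krt8, Krt14 and Krt18 below the reference.

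The difference between clusters itself differed between the transgenes for 3 of 28743 genes in the limma interaction (adjusted p = 0.0265 for each). Exoc1, a subunit of the exocyst, differed by 0.36 within p75 and -1.52 within p110, an interaction of 1.88. Gtf2ird2 differed by -0.52 and 2.04 (-2.55), and Slc35e4, a solute carrier, by -1.08 and 2.47 (-3.55). An unadjusted interaction p under 0.05 was found for 2483 genes. The p110 side rests on 2 tumors per cluster, of which p110-121 is 1, and scan year cannot be told apart from transgene.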

How the results depend on the processing

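No gene passed the adjusted threshold under any alternative but 3. Without p110-225, p110-374 and p110-98, 15 genes passed. One is Wnt6, for which this is no test because the clusters were drawn from it. The others include Dhh, Krt16, Cnfn, Klk6 and Krt27, all higher, and Nat8f1, lower. The high-Wnt tumors left in that fit are the adenosquamous p75 carcinomas alone, so cluster and histological type cannot be told apart in it. With p75 tumors alone 1 passed (Mmp7), and leaving out each tumor in turn gave 0 to 2, the 2 being without p110-121. The number with an unadjusted p under 0.05 was 1158. It was 394 with median centering in place of loess, 645 of 10865 when genes had to be measured in 5 of the 10 tumors, 1766 with adenosquamous type as a covariate and 1968 with the strength of the tumor color. It was 2018 without the 3 weak tumors, 2268 with p75 tumors alone and 935 to 1415 with each tumor left out. The cause of these shifts was not tested, beyond the smaller number of genes tested in the second. The difference in the share of probes above background ranged from -8.09 to 3.45 points with each tumor left out. Median centering turned the sign of the medians of the basal, receptor, BMP, immediate early, glycolysis, erythrocyte and rising EMT lists, and other corrections or scalings that of the BMP, ErbB and erythrocyte lists. Median centering also lowered the medians of the milk (0.25), fibroblast (0.27), adipocyte (0.40) and luminal (0.05) lists. With Feature Extraction's processed signals those of the targets (1.30), squamous (0.81), fibroblast (0.98) and luminal (0.73) lists were larger. The medians of 16 of the 30 lists had the same sign whichever tumor was left out. No paired analysis by replicate number was possible because the replicate numbers only follow the order of accession and pair no tumors. Scan day, which some tumors of both clusters share, was a block in alternative fits and not in the main fit. Scan day as a fixed block, with 1068 genes at an unadjusted p under 0.05, and the counts and medians of lists and named genes with tumors left out were chosen after seeing the data. Dim signal, with 20.9% to 65.0% of probes well above background, limits what could be seen of genes such as Axin2, Wnt2b and Wnt5a.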
